A study of Mus musculus with 2 samples.

Results

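Mural cells and fibroblasts, the contractile and the collagen-making cells of the vessel wall and brain lining, were picked out of single-cell libraries of the mouse lateral hypothalamic area by their raw UMIs (unique transcript molecules). A cell was kept with 500 or more genes and at most 20% mitochondrial UMIs, and a candidate had at most 2 UMIs of the endothelial genes Cldn5 and Flt1 together. It was called mural with 4 or more UMIs summed over Rgs5, Vtn, Kcnj8, Acta2 and Tagln, and fibroblast with 4 or more summed over Dcn, Lum, Col1a1 and Col1a2, the larger sum deciding. These 9 genes and the 2 endothelial genes chose the cells, so their levels are given as a description only. The rule found 59 mural cells and 55 fibroblasts, 114 of 6906 kept cells. The study had 2 libraries of C57BL/6 mice at postnatal day 30, both made from fresh, dissociated slices of the region, with no treatment named in the labels. The one labelled male pooled 3 animals and the one labelled female pooled 2 animals, all 5 of them littermates, so each label has 1 library. The library labelled male held 16 mural cells and 22 fibroblasts, and the library labelled female held 43 mural cells and 33 fibroblasts.

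Mural cells wrap the vessels from outside the endothelium. On arterioles they are smooth muscle cells, which shorten when myosin is switched on by calcium through myosin light chain kinase, and on capillaries they are pericytes, which sit within the basement membrane and are kept in place by endothelial PDGF-B acting on the receptor Pdgfrb. Fibroblasts of the brain lie in the meninges, along larger vessels and in the choroid plexus stroma, where they lay down fibrillar collagen, carry solutes and make retinoic acid.

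Sex-linked transcripts did not match the label of either library in these cells. Xist, transcribed from an inactive X chromosome, had 286 UMIs in 38 of 38 mural cells and fibroblasts of the library labelled male and none in the 76 of the library labelled female. The Y-linked Ddx3y had 0 and 59 UMIs in the same order, and Eif2s3y had 0 and 19. The libraries are therefore named by their labels throughout, and each value below is given with the library labelled male first.

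Not every barcode picked by the rule carried markers of 1 kind of cell alone. Among the mural cells, 4 of 16 and 18 of 43 also carried markers of neurons, oligodendrocytes or microglia above set limits (15 or more UMIs of the neuronal Meg3 or 5 or more of the microglial C1qa among them), and 4 of 22 and 8 of 33 fibroblasts did. Without them 12 and 25 mural cells and 18 and 25 fibroblasts remained; these are called cells of one class, a division made after the data were seen, and for many results below values are given both ways. Near the limit the mural cells were mostly of the mixed sort: 1 of 2 and 3 of 3 at 4 or 5 UMIs, against 2 of 13 and 4 of 27 at 13 or more. Just outside it, 6 of 7 and 21 of 23 kept cells with 2 or 3 mural UMIs were mixed. Whether a mixed barcode held 1 cell, more than 1 cell or stray transcripts was not tested. No fibroblast of the library labelled male and 2 of the library labelled female stood at 4 or 5 UMIs, and 4 and 13 kept cells had 2 or 3. A few cells passed both limits: 2 and 3 mural cells had 4 or more fibroblast UMIs, and 10 and 7 fibroblasts had 4 or more mural UMIs, in 8 and 5 of them nearly all from Vtn. The division into cells of one class did not use these sums, and the 2 and 3 mural cells stayed among the cells of one class. Of 18 barcodes shared by the libraries, 1 belonged to a mural cell or fibroblast.

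**Figure D1:**
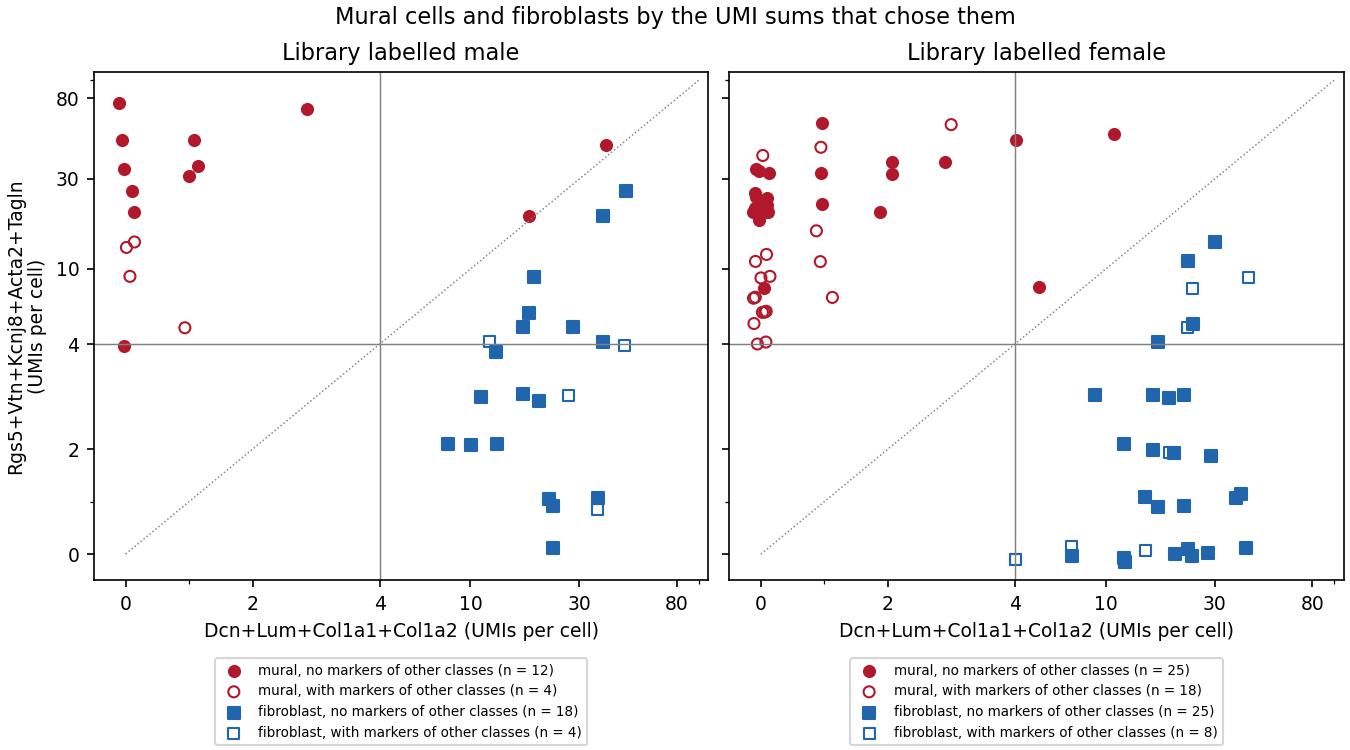
Mural UMIs (Rgs5, Vtn, Kcnj8, Acta2 and Tagln summed, vertical) against fibroblast UMIs (Dcn, Lum, Col1a1 and Col1a2 summed, horizontal) for each mural cell and fibroblast, on axes that are linear near 0 and logarithmic above, 1 panel per library; open symbols also held UMIs of another class. Most cells lie near 1 axis, and the open mural symbols gather at low mural sums.

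The plot of the sums by cell shows how far the kinds stood apart on the genes that chose them. The mural sum had a median of 28.5 and 20 UMIs in mural cells, and the fibroblast sum a median of 21 and 20 UMIs in fibroblasts. Both kinds were shallower than the rest, with a median of 2881 and 3223 UMIs per mural cell, 3852 and 3304 per fibroblast, and 6000 and 6526 per other kept cell. In all, mural cells gave 60336 and 201458 UMIs and fibroblasts 116490 and 161118. Mixed barcodes made up a larger part of these totals than of the cells, in both kinds and both libraries. The deepest mural barcode of each library, at 12271 and 14867 UMIs, was mixed. The deepest fibroblast of the library labelled male, with 21416 of the 116490 UMIs, was not mixed and stayed among the cells of one class. Levels over all cells of a kind include the UMIs of such barcodes. Mural cells made up 0.488% of kept cells in the library labelled male (exact 95% binomial interval 0.279% to 0.792%) and 1.18% in the library labelled female (0.859% to 1.59%). Fibroblasts made up 0.672% (0.421% to 1.01%) and 0.909% (0.627% to 1.27%). The intervals cover counting error only, and since a label is a single library the shares carry no test.

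Of the mural rule genes, Rgs5, a regulator of G protein signalling typical of pericytes, had 241 and 355 UMIs in mural cells and 3 and 0 in fibroblasts. Acta2, smooth muscle actin, had 125 and 347 UMIs in mural cells and none in fibroblasts, and Tagln, an actin-binding protein of smooth muscle, had 45 and 154 against 5 and 9. Kcnj8, a potassium channel subunit of pericytes, was sparse at 3 and 16 UMIs against 1 and 1. Vtn, which encodes the adhesion protein vitronectin, did not separate the kinds: it had 83 and 82 UMIs in mural cells and 99 and 73 in fibroblasts. Of the fibroblast rule genes, Dcn, the collagen-binding proteoglycan decorin, had 259 and 193 UMIs in fibroblasts and 31 and 0 in mural cells, where 30 of the 31 came from 1 cell. Col1a2, a chain of type I collagen, had 176 and 283 UMIs in fibroblasts and 25 and 31 in mural cells, and Lum, the related proteoglycan lumican, had 29 and 42 against 5 and 0.

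**Figure D2:**
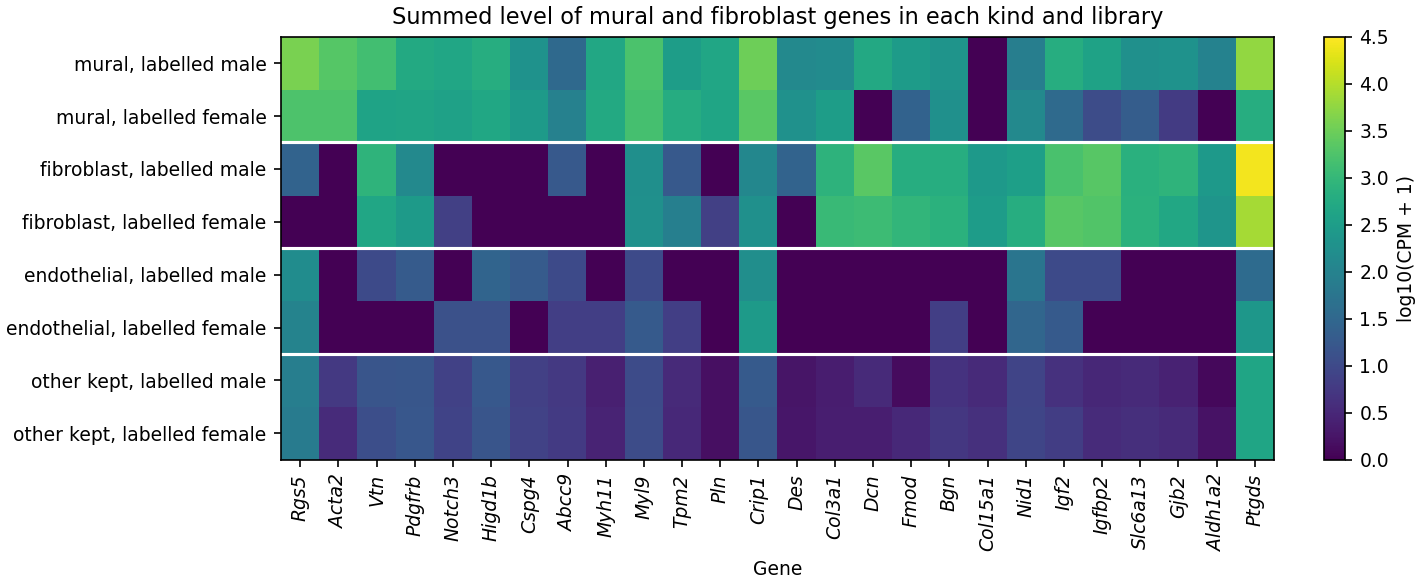
Level of 26 genes (columns) in mural cells, fibroblasts, endothelial cells and other kept cells of each library (rows), as the base-10 logarithm of CPM plus 1 over the summed cells. The contractile and pericyte genes are brightest in the mural rows of both libraries, and the meningeal and collagen genes in the fibroblast rows.

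To ask which other genes went with each kind, the UMIs were summed per library and kind and compared with edgeR's quasi-likelihood test with the library as a block, with Benjamini-Hochberg adjustment over all genes tested. Levels are given as CPM, the UMIs of a gene scaled to a common total (counts per 1e6 UMIs of the summed cells). A gene was called at an adjusted p under 0.05. The cells were sorted on 11 genes of the same libraries, so the tests describe which further genes go with that sort. The block removes the difference between the 2 pools of littermates. The p-values therefore rest on how far the difference between kinds varied from pool to pool, a spread mostly shared across genes. In the comparisons with other kept cells it was shared wholly.

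Between mural cells and fibroblasts, 166 of 2975 genes tested were called higher in mural cells (5.58%) and 247 higher in fibroblasts (8.3%). By list, 18 of 19 contractile genes tested, 12 of 19 pericyte genes and 6 of 12 vasoactive genes were called higher in mural cells. Of 33 meningeal genes 29, of 26 interstitial matrix genes 20 and of 8 insulin-like growth factor genes 6 were called higher in fibroblasts. DESeq2 on the same sums called 30 genes, 13 higher in mural cells and 17 in fibroblasts, all of them among edgeR's 413, and of the 20 named genes with the largest changes it called 4; with each cell thinned to 2000 UMIs edgeR called 91. Among cells of one class edgeR called 290 genes of 1383, 158 higher in mural cells and 132 in fibroblasts. Of the 413 genes, 338 could be tested there. In all, 239 were called both ways in the same direction, 115 higher in mural cells and 124 in fibroblasts. With the mural cells over the fibroblast limit left out as well, edgeR called 326 genes of 1346, 169 higher in mural cells and 157 in fibroblasts.

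The contractile genes moved nearly as one. Of 19 tested, 18 were called higher in mural cells and none lower, with a median log2 difference of 3.03 where the median over all genes was -0.01. Myh11, the myosin heavy chain of smooth muscle (ENSMUSG00000018830, chr16:14194535-14291372, minus strand, GRCm38), had 30 and 111 UMIs in mural cells and none in fibroblasts. Every fibroblast sum was empty for it, so the difference is a bound: mural cells were at least 49.8-fold higher when the fibroblast total is set to 3 UMIs (adjusted p = 1.53e-10 by edgeR's quasi-likelihood test). Pln, phospholamban, the brake on the calcium pump of the sarcoplasmic reticulum (chr10:53337667-53345987, plus strand), had 28 and 89 UMIs against 0 and 1, a ratio of 124 with a 95% counting interval of 21.8 to 4942. Both mural sums of Pln and of Myh11 lay above both fibroblast sums.

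Myl9, the regulatory light chain that the kinase acts on, was at 1707 and 1479 CPM in mural cells and at 172 and 180 CPM in fibroblasts. The groups did not overlap, and the fitted log2 difference was 3.08 ± 0.26 (SE, adjusted p = 1.37e-10 by edgeR). Here and below the SE was worked back from edgeR's test, as the absolute log2 difference over the square root of its F statistic. Crip1, a LIM-domain protein, was at 3182 and 2268 CPM against 120 and 180 CPM, a log2 difference of 4.04 ± 0.26 (adjusted p = 1.68e-13 by edgeR), among the smallest p-values of the comparison. Mylk, myosin light chain kinase, differed by 3.60 ± 0.40 and Tpm2, a tropomyosin, by 3.03 ± 0.40 on the log2 scale. The differences were smaller for genes that non-muscle cells also use. Cald1, caldesmon, was at 978 and 829 CPM in mural cells and 378 and 397 CPM in fibroblasts, a log2 difference of 1.12 ± 0.25. Myl6, the essential light chain shared with non-muscle myosin, was at 1475 and 1807 against 712 and 788 CPM, a log2 difference of 1.05 ± 0.22. Pdlim7, a PDZ and LIM scaffold, was the 1 contractile gene not called, at 49.7 and 114 CPM against 103 and 80.7 CPM.

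The contractile genes are textbook targets of serum response factor, which binds the CArG box, so the 250 bases before each start site were searched on both strands for CC, 6 bases of A or T, then GG. RefSeq promoters (GRCm38.p6) were found for 24 of 30 contractile genes. A gene was counted once if any of its promoters held the box. This was so for 3 of the 24 genes (12.5%), against 439 of all 27025 genes with a promoter (1.62%). Counted the same way, 2 of 26 early response genes (7.69%), 1 of 19 basement membrane genes (5.26%) and 2 of 41 meningeal genes (4.88%) had the box. None of 20 pericyte genes and none of 31 interstitial matrix genes had it. These counts describe letters in a short window and are no evidence of binding. The 3 contractile promoter stretches are shown because they belong to members of the group, with the box in capitals and 20 bases on each side. The RefSeq starts used for Myl6 and Filip1l lie inside the gene bodies of the annotation, chr10:128490860-128494145 and chr16:57353093-57573126, so for these genes the box precedes an internal transcript start.
Myl9, chr2:156775283-156775332, plus strand, box 161 to 152 bases before the start: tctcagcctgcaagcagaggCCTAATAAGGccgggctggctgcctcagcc
Myl6, chr10:128493030-128493079, minus strand, box 50 to 41 bases before the start: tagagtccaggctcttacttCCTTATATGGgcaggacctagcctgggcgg
Filip1l, chr16:57549160-57549209, plus strand, box 62 to 53 bases before the start: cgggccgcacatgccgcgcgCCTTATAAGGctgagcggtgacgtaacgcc

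The pericyte list split in both directions. Of 19 genes tested, 12 were called higher in mural cells and 5 lower, with a median log2 difference of 2.70. Higd1b, a mitochondrial protein enriched in brain pericytes (ENSMUSG00000020928, chr11:102835849-102838040, plus strand), had 38 and 98 UMIs in mural cells and none in fibroblasts, at least 48.1-fold higher (adjusted p = 1.42e-10 by edgeR). Cspg4, the NG2 proteoglycan, had 12 and 57 UMIs against none, at least 24.4-fold higher, and Cox4i2, a respiratory chain subunit induced by low oxygen, had 14 and 25 UMIs against none, at least 13.8-fold higher. Rgs4, a G protein regulator, was at 680 and 501 CPM in mural cells and 17.2 and 18.6 CPM in fibroblasts, a log2 difference of 4.85 ± 0.45 (adjusted p = 7.84e-10 by edgeR). Atp13a5, a P5-type transport ATPase marking pericytes of the brain, had 7 and 35 UMIs against 0 and 1, and could not be tested in cells of one class.

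The 5 pericyte genes called higher in fibroblasts had UMIs in both kinds. Tbx18, a transcription factor of mural cells and of the mesothelial lining, was at 99.4 and 89.3 CPM in mural cells and 266 and 341 CPM in fibroblasts, a log2 difference of -1.83 ± 0.38 (adjusted p = 0.000539 by edgeR). Ifitm1, an interferon-induced membrane protein, was at 82.9 and 74.5 CPM against 532 and 757 CPM, a log2 difference of -3.19 ± 0.35. The others were Zic1, a zinc-finger transcription factor, at -1.44 ± 0.34, the amino acid carrier Slc6a20a, at 249 and 99.3 against 455 and 366 CPM, and the BMP antagonist Nbl1 at -1.22 ± 0.26. Pdgfrb itself was called higher in mural cells but was present in both kinds, at 530 and 417 CPM against 129 and 279 CPM, a log2 difference of 1.06 ± 0.33 (adjusted p = 0.0228 by edgeR).

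Notch3, the Notch receptor of vascular smooth muscle and pericytes (ENSMUSG00000038146, chr17:32120820-32166852, minus strand), had 28 and 76 UMIs in mural cells and 0 and 1 in fibroblasts. Its log2 difference was 6.44 ± 0.65 (adjusted p = 3.17e-09 by edgeR). Heyl, a transcriptional target of Notch, was also higher at 149 and 194 CPM against 34.3 and 24.8 CPM, a log2 difference of 2.51 ± 0.54. Of 13 genes tested in the PDGF, Notch and angiopoietin list, 5 were called higher in mural cells, with Pdgfa and the Notch feedback gene Nrarp beside these and Pdgfrb, and 1 lower. The 1 lower gene was Pdgfra, the PDGF receptor of fibroblasts and oligodendrocyte precursors, at 265 and 34.8 CPM against 266 and 397 CPM. Its mural level in the library labelled male equalled that of the fibroblasts, 16 UMIs in 3 cells, and the call was lost in cells of one class (adjusted p = 0.0751 by edgeR).

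Of 12 vasoactive genes tested, which act on vessel tone, 6 were called higher in mural cells and none lower, with a median log2 difference of 3.04. The subunits of soluble guanylate cyclase, the nitric oxide receptor, were both among them: Gucy1a3 had 10 and 38 UMIs in mural cells against 0 and 1, and Gucy1b3 had 19 and 25 against 1 and 4. Pde3a, a phosphodiesterase that ends the cyclic nucleotide signal, had 10 and 39 UMIs against 1 and 2, a log2 difference of 3.89 ± 0.65. Ano1, a calcium-activated chloride channel, had 12 and 24 UMIs against 1 and 0, and P2ry14, a receptor for UDP-sugars, 10 and 21 against 1 and 2. Among those not called were Pde5a, the cyclic GMP phosphodiesterase (adjusted p = 0.0785 by edgeR), the neuropeptide Y receptor Npy1r and the calcium channel Cacna1c. Outside the lists, Olfr558, an olfactory receptor gene, had 20 and 30 UMIs in mural cells and none in fibroblasts, at least 17.7-fold higher (adjusted p = 6.15e-07 by edgeR). Also at 0 in fibroblasts were Slc38a11, an amino acid carrier, with 10 and 37 UMIs in mural cells, Gjc1, connexin 45, with 12 and 18, Car4, a carbonic anhydrase, with 9 and 20, and Aoc3, an amine oxidase of smooth muscle, with 6 and 23.

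The transcription factors divided the kinds. Of 19 tested, 5 were called higher in mural cells and 7 in fibroblasts. Mef2c, a myocyte enhancer factor, was at 646 and 387 CPM in mural cells and 17.2 and 37.2 CPM in fibroblasts, a log2 difference of 3.96 ± 0.44 (adjusted p = 2.59e-08 by edgeR). Epas1, the hypoxia-inducible factor of vessels, differed by 3.08 ± 0.41, Ebf1 by 2.49 ± 0.44 and the T-box factor Tbx2, with 10 and 19 UMIs against 1 and 0, by 4.74 ± 1.12. On the fibroblast side Osr1, an odd-skipped factor of mesenchyme, had 18 and 33 UMIs against 1 and 0 in mural cells. Foxc1 and Foxd1, forkhead factors of the meninges, Foxp1 and Klf4 were also called, with log2 differences of -1.31, -1.46, -1.21 and -1.78. A single cell held 15 of the 40 fibroblast UMIs of Foxd1, and a single cell held 25 of the 78 of Foxp1. In cells of one class Foxc1, Foxd1 and Klf4 were no longer called, leaving 5 higher in mural cells and 4 in fibroblasts of 16 tested.

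Most of the interstitial matrix genes that could be tested were higher in fibroblasts. Of 26 interstitial matrix genes tested, 20 were called higher in fibroblasts and 1 in mural cells, with a median log2 difference of -2.33. Col3a1, type III collagen, was at 824 and 1136 CPM in fibroblasts and 149 and 323 CPM in mural cells, a log2 difference of -2.10 ± 0.27 (adjusted p = 6.15e-07 by edgeR). Fmod, the proteoglycan fibromodulin, differed by -2.99 ± 0.45, Bgn, biglycan, by -1.92 ± 0.29 and Efemp1, a fibulin, by -4.77 ± 0.69. Fn1, fibronectin, also passed the test at 918 and 254 CPM against 16.6 and 49.6 CPM, but 104 of the 148 fibroblast UMIs (70.3%) came from 1 cell. The 1 matrix gene on the mural side was Aspn, asporin, a proteoglycan of the decorin family, with 16 and 38 UMIs in mural cells and none in fibroblasts, at least 19.1-fold higher (adjusted p = 6.15e-07 by edgeR). Eln, elastin, was in both kinds, at 49.7 and 367 CPM in mural cells and 103 and 583 CPM in fibroblasts, and was not called (adjusted p = 0.139 by edgeR).

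Fewer of the basement membrane genes were called. Of 16 tested, 6 were called higher in fibroblasts and 1 in mural cells. Nid1, nidogen, which links laminin to type IV collagen, was at 352 and 639 CPM in fibroblasts and 82.9 and 129 CPM in mural cells, a log2 difference of -2.30 ± 0.34 (adjusted p = 4.79e-06 by edgeR). Col15a1, a collagen at the outer face of basement membranes (ENSMUSG00000028339, chr4:47208161-47313167, plus strand), had 31 and 49 UMIs in fibroblasts and none in mural cells, at least 25.1-fold lower there (adjusted p = 3.92e-08 by edgeR). Lama1, a laminin chain of the brain surface, had 14 and 14 UMIs against 1 and 0. The type IV collagen chains did not separate the kinds: Col4a1 was at 116 and 124 CPM in mural cells and 120 and 168 CPM in fibroblasts and Col4a2 at 133 and 238 against 146 and 199 CPM, and neither was called. Sparcl1, a secreted glycoprotein, was the 1 gene higher in mural cells, at 895 and 794 against 395 and 459 CPM. Sparc and Hspg2, called higher in fibroblasts at -1.23 and -2.06 on the log2 scale, were not called in cells of one class, where 3 of 13 genes were higher in fibroblasts and 1 in mural cells.

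**Figure D3:**
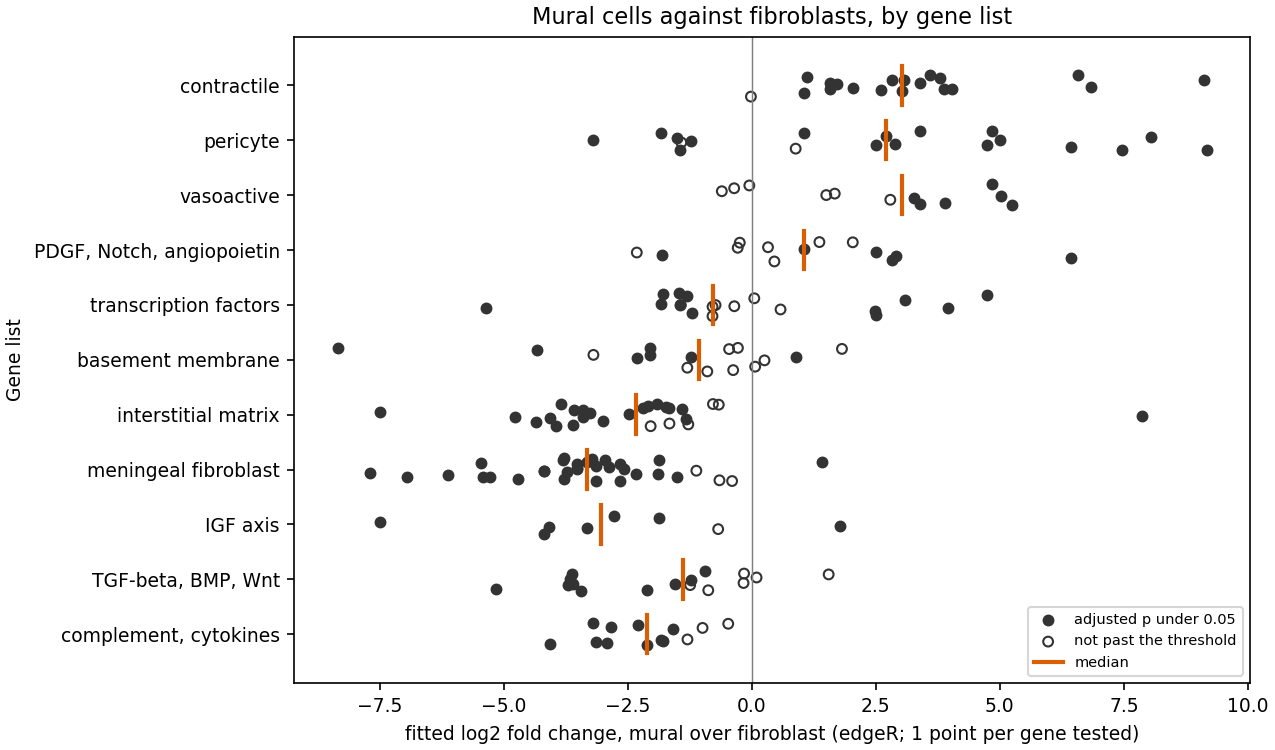
Fitted log2 difference of mural cells over fibroblasts for each tested gene (points) of 11 gene lists (rows), with filled points for genes called at an adjusted p under 0.05 and an orange line at each list's median. Contractile, pericyte and vasoactive genes lie mostly right of 0, and matrix, meningeal and insulin-like growth factor genes mostly left; points beyond about 7 on either side belong to genes with no UMI in 1 kind, whose fitted values depend on the prior count.

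Fibroblasts carried the genes of the meningeal lining. Of 33 meningeal genes tested, 29 were called higher in fibroblasts and 1 in mural cells, with a median log2 difference of -3.31, which is visible as the leftward shift in the plot of fitted differences by list. Solute carriers were among them: Slc6a13, a GABA and taurine carrier, was at 721 and 732 CPM in fibroblasts and 182 and 19.9 CPM in mural cells (log2 difference -3.52 ± 0.42), and Slc7a11, the cystine-glutamate exchanger, at 996 and 1043 against 166 and 44.7 CPM (-3.72 ± 0.35). Slc22a6, an organic anion carrier, had 27 and 26 UMIs against 1 and 0, and Slc13a3, a dicarboxylate carrier, 15 and 36 against 1 and 0. Gap junction genes were among them too. Gjb6, connexin 30 (chr14:57123303-57133611, minus strand), had 98 and 78 UMIs in fibroblasts and 1 and 0 in mural cells, 166-fold lower there with a 95% counting interval of 29.4 to 6592 (adjusted p = 1.37e-10 by edgeR), and its partner Gjb2, connexin 26, differed by -3.51 ± 0.45.

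The meningeal list also holds retinoid genes. Aldh1a2 and Aldh1a1, which make retinoic acid, differed by -3.21 ± 0.63 and -2.65 ± 0.47. Crabp2, which carries retinoic acid into the nucleus, had 18 and 18 UMIs in fibroblasts and 1 and 0 in mural cells, and Rbp4, which carries retinol outside cells, 43 and 48 against 0 and 1. Ptgds, the prostaglandin D synthase secreted by the leptomeninges, was the most abundant member at 26480 and 7746 CPM against 5983 and 625 CPM, a log2 difference of -2.95 ± 0.19 (adjusted p = 1.68e-13 by edgeR). Among fibroblasts of the library labelled male, 1121 of its 3085 UMIs came from 1 cell, and 331 of the 487 UMIs of all mural cells came from 1 cell. The 1 meningeal gene higher in mural cells was Cldn11, a claudin also of myelin, at 630 and 402 CPM against 575 and 12.4 CPM. In cells of one class Cldn11 was too sparse to test.

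Of 8 genes of the insulin-like growth factor system tested, 6 were called higher in fibroblasts and 1 in mural cells. Igf2 was at 1605 and 2141 CPM in fibroblasts and 630 and 34.8 CPM in mural cells, a log2 difference of -3.31 ± 0.46 (adjusted p = 1.96e-06 by edgeR), and 31 of its 45 mural UMIs (68.9%) came from 1 cell. Igfbp2, a carrier of these growth factors (ENSMUSG00000039323, chr1:72824503-72852474, plus strand), was at 2163 and 1862 CPM against 398 and 9.93 CPM, a log2 difference of -4.19 ± 0.45, and 19 of its 26 mural UMIs came from 1 cell. Igfbp6, a carrier that prefers Igf2, had 36 and 19 UMIs in fibroblasts and none in mural cells, at least 17.3-fold lower there, with 27 of the 55 in 1 cell. Igfbp4 and Igfbp5 were also called, at -1.87 and -2.77 on the log2 scale. Igfbp7, a related secreted protein of vessels, was the exception, at 1110 and 1052 CPM in mural cells and 352 and 254 CPM in fibroblasts, a log2 difference of 1.78 ± 0.26 (adjusted p = 3.02e-06 by edgeR).

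In the list of TGF-beta, BMP and Wnt genes, 10 of 16 tested were called higher in fibroblasts and none in mural cells, with a median log2 difference of -1.39. Wnt6 had 19 and 27 UMIs in fibroblasts and 1 and 0 in mural cells, Wnt4 18 and 37 against 4 and 0, and Wnt5a 20 and 24 against 2 and 1. Bmp7, a BMP ligand, had 27 and 32 UMIs against 4 and 0 (log2 difference -3.62 ± 0.67), and Bmp4 had 16 and 12 against 1 and 1. In cells of one class 7 of 12 genes were higher in fibroblasts, and Ltbp1, which stores latent TGF-beta in the matrix, was called higher in mural cells. Of 13 complement and cytokine genes tested, 10 were called higher in fibroblasts and none in mural cells, with a median of -2.11. Among them were the complement regulator Serping1 at -2.29 ± 0.43, the chemokine Cxcl12 at -2.83 ± 0.38 and the alarmin Il33 at -3.13 ± 0.60. Genes outside the lists that were at 0 in mural cells included Dab2, an endocytic adaptor, with 24 and 46 UMIs in fibroblasts, and Gstm2, a glutathione transferase, with 22 and 17. Enpp1, a phosphodiesterase that makes pyrophosphate, had 27 and 33 UMIs in fibroblasts and 1 and 0 in mural cells.

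Early response genes, which cells switch on within minutes of a stimulus, were present in both kinds. Of 23 tested, 5 were called higher in fibroblasts and none in mural cells, among them Jun at -1.16 and Junb at -1.54 on the log2 scale. Fos was at 994 and 650 CPM in mural cells and 1296 and 565 CPM in fibroblasts and was not called (adjusted p = 0.767 by edgeR). In cells of one class the 5 calls were absent and 2 genes, Btg2 and Nr4a1, were higher in mural cells. Markers of other cell types also differed between the sums. Of 8 neuron genes tested 3, and of 7 oligodendrocyte genes 7, were called higher in mural cells and none lower. In cells of one class 1 of 1 neuron gene and 0 of 3 oligodendrocyte genes were. The neuron list summed to 8784 and 13070 CPM in mural cells and 2859 and 7895 CPM in fibroblasts, and the oligodendrocyte list to 13520 and 11890 against 6464 and 2030 CPM. In cells of one class these sums were within 979 to 1212 against 457 to 844 CPM, and 2764 to 4602 against 2473 to 3343 CPM. Genes of both lists set that division, so part of this fall was fixed by it. The part of these markers in the calls above beyond that division was not tested.

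Within the mural cells, those with 4 or more UMIs of Acta2 and Tagln together, called contractile here, numbered 8 and 22, and the others 8 and 21. The sums hold too few cells in the library labelled male for the test, so values are given alone, and Acta2 and Tagln themselves set the division. Smooth muscle genes that the division did not use went with it. Pln had 28 and 89 UMIs in contractile cells and none in the others, at least 59.8-fold higher, and Myh11 had 28 and 107 against 2 and 4, a ratio of 34.5 with a 95% counting interval of 15.4 to 95.6. Crip1 had 169 and 441 UMIs against 23 and 16, and Myl9 81 and 273 against 22 and 25. Eln, elastin, was uneven between the libraries, with 2 and 71 UMIs in contractile cells and 1 and 3 in the others. Cnn1, calponin, a late smooth muscle gene, had 22 UMIs in contractile cells of the library labelled female and none elsewhere among mural cells.

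The pericyte list as a whole summed to 6973 and 5981 CPM in contractile cells and 5149 and 3668 CPM in the others, and in cells of one class to 8460 and 6574 against 7125 and 10680 CPM. Its members differed in direction. Abcc9, the sulphonylurea receptor that pairs with Kcnj8, had no UMI in contractile cells and 2 and 19 in the others, at least 4.57-fold lower in contractile cells. Kcnj8 itself had 0 and 1 against 3 and 15, Atp13a5 2 and 7 against 5 and 28, and Slc6a20a 1 and 3 against 14 and 17, with 10 of these 35 in 1 cell. The meningeal list summed to 21090 and 2491 CPM in the non-contractile cells and 809 and 1783 CPM in the contractile ones, and both mural cells of the library labelled male that passed the fibroblast limit were non-contractile; the part of these cells in the values of Slc6a20a was not tested. Higd1b did not differ beyond counting error, at 616 and 504 CPM in contractile cells and 640 and 476 CPM in the others, a ratio of 1.04 (95% counting interval 0.725 to 1.48). Notch3 was 2.90 times as high in contractile cells (1.91 to 4.46) and Pdgfrb 1.59 times (1.08 to 2.32). The non-contractile cells held most of the mixed barcodes, 3 of 8 and 16 of 21 against 1 of 8 and 2 of 22. Only 5 and 5 non-contractile cells were of one class. They included both cells of the library labelled male over the fibroblast limit, with 39 and 18 fibroblast UMIs. They also included a cell of the library labelled female with 8 mural and 5 fibroblast UMIs. The part of these cells in the one-class values of this paragraph was not tested. Among cells of one class the ratio of Higd1b was 0.473 (0.305 to 0.741), that of Pdgfrb 1.09 (0.616 to 2.05) and that of Myh11 9.91 (3.77 to 37.0), and Pln was at least 12.8-fold higher. In the same cells Abcc9 had 0 and 0 UMIs in contractile cells against 0 and 4, so in the library labelled male no difference could be seen, and Atp13a5 had 1 and 5 against 0 and 10. Kcnj8 had 0 and 1 against 1 and 4, and Slc6a20a 1 and 2 against 10 and 2.

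**Figure D4:**
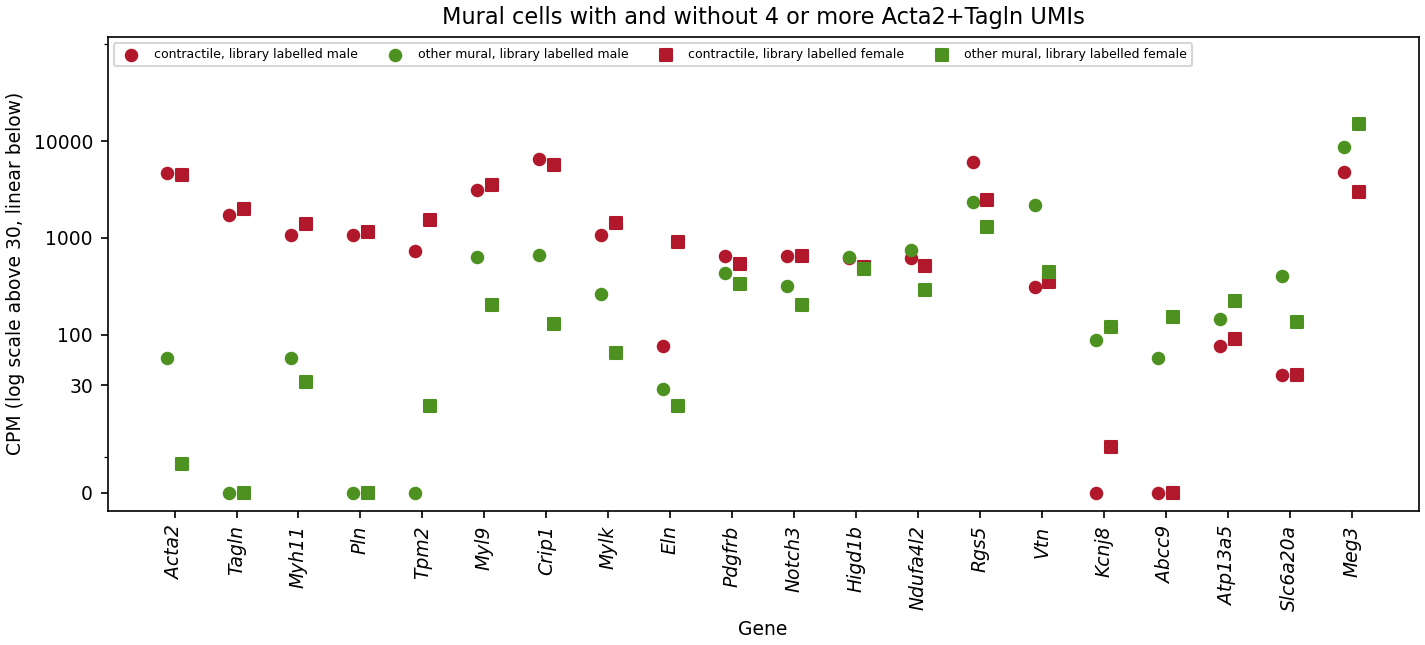
CPM of 20 genes (horizontal positions) in contractile and other mural cells of each library, on a vertical axis that is linear near 0 and logarithmic above; the legend names the marker of each library and division. Pln and Myh11 are high in contractile cells of both libraries, Higd1b is level, and Abcc9 and Kcnj8 are higher in the other mural cells.

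Against the other kept cells, mostly neurons and glia, mural cells carried vessel wall genes at high ratios, which the plot of CPM by gene also shows along these rows. Of 14192 genes tested, 512 were called higher in mural cells (3.61%) and 247 lower (1.74%), while DESeq2 called 421 higher and 18 lower. The median over all genes was -0.24 on the log2 scale by edgeR and -0.16 by DESeq2, so values are read against that shift. Of 27 contractile genes tested 25 were called higher and of 27 pericyte genes 25, with median log2 differences of 5.23 and 4.67, and none lower. Pln was at 464 and 442 CPM in mural cells and 0.535 and 0.528 CPM in other cells, a ratio of 841 with a 95% counting interval of 546 to 1341. When the barcodes holding both mural and endothelial genes were left out of the other cells, the log2 difference of Pln went from 9.65 to 10.9, that of Myh11 from 8.25 to 10.1 and that of Crip1 from 7.27 to 8.45. With them, Myh11 had a ratio of 325 (246 to 433), Crip1 of 150 (135 to 166), and Notch3 differed by 5.84 ± 0.28 on the log2 scale. Of 37 interstitial matrix genes tested 12, of 25 basement membrane genes 17 and of 34 meningeal genes 17 were called higher in mural cells and none lower. The median of the meningeal genes was 1.97.

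Early response genes were also higher in mural cells than in the other kept cells, 16 of 29 tested with 1 lower. Fos was at 994 and 650 CPM against 71.1 and 58.9 CPM, a log2 difference of 3.56 ± 0.28 (adjusted p = 1.54e-34 by edgeR). The 1 lower gene was the chaperone Hsp90aa1, at 365 and 457 CPM against 928 and 868 CPM. Lower genes were led by neuropeptides and globins. Pmch, the precursor of melanin-concentrating hormone, a peptide of neurons in this region, had 22 and 53 UMIs in mural cells and 110628 and 79655 in the other cells, a log2 difference of -3.67 ± 0.34. Oxt had 1 and 2 UMIs and Avp 1 and 3 in mural cells. These are differences in summed level more than in the cells with a UMI. Pmch was found in 11 of 16 and 27 of 43 mural cells and in 2348 of 3238 and 2503 of 3554 other cells. Oxt was found in only 130 and 276 of the other cells, and the globin Hbb-bt, at 0 in mural cells, in 53 and 134. Their levels in the other cells thus rest on a small share of those cells. The neuronal Meg3 was not called (adjusted p = 0.350 by edgeR) but differed by -4.58 on the log2 scale in cells of one class. Among cells of one class 518 genes were called higher in mural cells and 838 lower.

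Against the same other kept cells, most meningeal and matrix genes tested were higher in fibroblasts. Of 14314 genes tested, 1136 were called higher (7.94%) and 1106 lower (7.73%), against 879 and 295 by DESeq2. The median over all genes was -0.26 by edgeR and -0.19 by DESeq2. Because the comparisons of mural cells and of fibroblasts share their control cells, values are set side by side without a test between them. Of 44 meningeal genes tested 40 were called higher and 1 lower, with a median of 5.80, and of 41 matrix genes 35 were called higher and none lower, with a median of 5.35. Mural lists were also higher in fibroblasts than in these cells. Of 26 pericyte genes tested 14 were called higher and 1 lower, with a median of 2.69. Of 23 contractile genes 12 were called higher and 1 lower, with a median of 2.465. Cyp1b1, a cytochrome that acts on retinoids and steroids, had 12 and 39 UMIs in fibroblasts and 5 and 2 in all other cells, a ratio of 1284 with a 95% counting interval of 580 to 3354. The libraries differed in it, at 103 against 0.223 CPM and 242 against 0.0755 CPM. Foxc2, a forkhead factor of the meninges and vessels, had 21 and 8 UMIs against 3 and 2, with 14 of the 29 in 1 fibroblast. Igfbp2 had 252 and 300 UMIs against 50 and 67, a ratio of 832 (680.0 to 1024).

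Other fibroblast groups followed. Of 11 insulin-like growth factor genes 8 were called higher, of 27 complement and cytokine genes 18 higher and 2 lower, and of 46 TGF-beta, BMP and Wnt genes 22 higher and none lower. Igf2 was at 1605 and 2141 CPM in fibroblasts and 3.30 and 5.70 CPM in other cells, a log2 difference of 8.77 ± 0.26. Apod, a lipid carrier, was at 6026 and 2849 against 123 and 89.1 CPM. Tbx18 was at 266 and 341 CPM against 1.20 and 1.36 CPM, a log2 difference of 7.92 ± 0.43 in fibroblasts beside 6.11 in mural cells. Early response genes were higher here too, 23 of 28 with 1 lower, and Fos was at 1296 and 565 against 71.1 and 58.9 CPM. All 7 macrophage genes tested were called higher in fibroblasts, and none of 3 was called in cells of one class, where macrophage markers had no UMI: they came from 1 mixed barcode in each library. Among the few lower genes of these lists were Cldn11 at -1.51 ± 0.24, the basement membrane genes Agrn and Egfl7, and Rgs4, which was higher in mural cells.

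The nearest cells on the vessel are endothelial cells, taken here as those with 4 or more Cldn5 and Flt1 UMIs and at most 2 of each other sum, 35 and 40 cells. Of 2993 genes tested, 205 were called higher in mural cells (6.85%) and 411 higher in endothelial cells (13.7%). DESeq2 called 28 and 86, all among edgeR's, and of the 20 named genes with the largest changes it called 6. Without the filter on low counts edgeR called 0 genes (1284 had an unadjusted p under 0.05), and none of the 20 named genes with the largest changes was called. Of 18 contractile genes 17 were called higher in mural cells and none lower, and of 19 pericyte genes 17 higher and 1 lower. Pln had 28 and 89 UMIs in mural cells and none in endothelial cells, at least 41.4-fold higher, and Col3a1 was at least 26.2-fold higher. Col3a1 had UMIs in 11 of 59 mural cells, with 25 of the 74 in 1 cell, and was not called by DESeq2 (adjusted p = 0.654). The endothelial cells were chosen with at most 2 fibroblast UMIs, a limit that the mural cells did not have. The part of that limit in the Col3a1 difference was not tested. Pdgfrb had 32 and 84 UMIs against 2 and 0, a log2 difference of 5.69 ± 0.59 (adjusted p = 8.18e-06 by edgeR). Notch3 had 28 and 76 against 0 and 2. The pericyte gene on the other side was Foxf2, a forkhead factor, at 49.7 and 29.8 CPM in mural and 110 and 136 CPM in endothelial cells.

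All 12 endothelial markers tested were higher in endothelial cells, with a median log2 difference of -5.09. Slco1c1, a thyroid hormone carrier of the blood-brain barrier, had 64 and 57 UMIs in endothelial cells and none in mural cells, at least 38.0-fold lower there. Pglyrp1, a peptidoglycan recognition protein, had 78 and 101 against none, at least 56.2-fold lower. DESeq2 called neither Slco1c1 nor Pglyrp1 (adjusted p = 0.431 and 0.406). Of 12 basement membrane genes tested, 1 was called higher in mural cells and 3 in endothelial cells. In cells of one class these were 6 and 1. Lamc1, a laminin chain, was at 232 and 179 CPM in mural and 91.7 and 47.4 CPM in endothelial cells, a log2 difference of 1.47 ± 0.43. Epas1 and Klf2, factors of hypoxia and of flow, were higher in endothelial cells, at -1.41 ± 0.24 and -3.33 ± 0.27, and Epas1 was not called in cells of one class.

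Between the labels, with 1 library each, levels are given without a test. The contractile list summed to 12730 and 12570 CPM in mural cells, and the pericyte list to 5933 and 4557 CPM. In mural cells of one class, which leaves out 4 of 16 and 18 of 43 cells, they summed to 19780 and 27910 CPM and to 7888 and 7244 CPM. In fibroblasts the interstitial matrix list summed to 9623 and 9831 CPM, while the meningeal list summed to 52490 and 26140 CPM, most of the gap being Ptgds and Apod; in fibroblasts of one class the meningeal list summed to 67790 and 39520 CPM. A few fibroblast genes rested on 1 cell of the library labelled male: Slc47a1 with 18 UMIs, the cadherin Cdh1 with 23 and the matricellular gene Nov with 63. In mural cells the chemokine Cxcl1 had 22 UMIs in 3 contractile cells of the library labelled female, 14 of them in 1 cell. The early response list summed to 6364 and 4596 CPM in mural cells and 11360 and 5673 CPM in fibroblasts, the higher value being in the library labelled male for both kinds.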

How the data were processed

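The deposited tables hold raw UMI counts per gene and barcode, made by the authors with Cell Ranger 2.2.0 on mm10 (GRCm38), per the submitters' processing notes. Both libraries were 10x Chromium v2, per the labels' protocols; barcodes numbered 3439 and 3793, and 163 of each were removed. Counts were read with Python 3.11.15 and summed per library and kind. They were tested in R 4.3.3 with edgeR 4.0.16 (filterByExpr, TMM, quasi-likelihood, library block; 4 sums leave 1 residual degree of freedom, so the spread is mostly shared across genes) and, as an alternative, DESeq2 1.42.0. Rule genes were fitted without a p-value. No cells were removed as doublets in the main analysis; Scrublet in scanpy 1.11.5 served as an alternative. Method checks on simulated counts were run. Zero sums were bounded at 3 UMIs over both libraries, and ratios pool the libraries. Genes named were the 10 largest called changes per direction at 100 CPM and 2-fold, list members by role, and the rule genes. The members and lists were chosen with earlier results of these data known. Values of some genes, among them 1 that divides the mixed barcodes, are not reported here.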

Additional observations from a re-analysis of the deposited data

Results flagged for a closer look

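Many kept barcodes carried mural genes together with endothelial genes and so entered neither kind. In the library labelled male 113 barcodes had 4 or more mural UMIs with over 2 UMIs of Cldn5 and Flt1, and in the library labelled female 114 did; the comparisons with other kept cells counted them among those cells. They made up 3.45% of kept cells (exact 95% binomial interval 2.85% to 4.13%) and 3.14% (2.60% to 3.76%), several times the share of mural cells themselves. Their median depth was 3768 and 4312 UMIs, and their endothelial list summed to 10440 and 8883 CPM, beside 12320 and 9775 CPM in endothelial cells. Whether each is 1 cell or a mural and an endothelial cell in 1 droplet was not tested. Leaving them out of the other kept cells gave 822 calls for mural cells, against 759 with them.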

How the results depend on the processing

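Counts of called genes moved by over 1.5 times under some settings; the cause was not tested. For mural cells against fibroblasts (413 genes) DESeq2 gave 30, no library block 246, a limit of 8 UMIs 176 and thinning to 2000 UMIs 91. For mural against other cells (759) DESeq2 gave 439, no block 1488, no Cldn5 or Flt1 UMI allowed 494, cells of one class 1356, and of one class and one kind 1200. For fibroblasts against other cells (2242) DESeq2 gave 1174, a mitochondrial limit of 10% 1242 and thinning 1260. For mural against endothelial cells (616) DESeq2 gave 114, no filter on low counts 0 (1284 genes at an unadjusted p under 0.05 by edgeR, and DESeq2's count is with the filter), a limit of 8 UMIs 179, thinning 342, and one class and one kind 371. The other 29 counts stayed within 1.5 times. The library block pairs sums of the same pool and is part of every test above, so the values without it are the unpaired ones. With gated cells over 10 UMIs of other classes left out, mural shares were 0.246% and 0.251% and fibroblast shares 0.307% and 0.53%; in cells of one class the mural share of the library labelled female was 0.694%. Of the named genes' values under these settings 833 kept their side of the threshold, 61 lost it and 0 reversed. Within 1 library their sign holds by the rule that named them. Of 160 single-library values, 98 lay over 1 SD between the libraries from the fitted value. Among them were all 20 for mural cells against fibroblasts without the library labelled female. That count sets plain ratios with a small added count against edgeR's fit, so it does not measure dependence on a library alone. Higd1b, at 0 in fibroblasts, was fitted at 9.165 on the log2 scale against fibroblasts but stood at 7.216 and 7.3 in the libraries. The 10% mitochondrial limit and the limit on other classes left sums under 10 cells for the 3 comparisons with mural cells, and these and a test of contractile against other mural cells were not run. Few UMIs per sum limit single genes: a gene at 0 gives a bound only.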
